A study of Mus musculus with 8 samples.

Results

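Immediate early AP-1 and feedback genes were described across resting and activated lymph-node dendritic cells (DCs). The group was chosen by symbol and holds the AP-1 subunit genes Fos, Fosb, Jun, Junb and Jund, the immediate early genes Egr1, Ier2 and Nr4a1, and the feedback genes Zfp36 and Dusp1. All 10 were found among the 10412 genes of the deposited table, and all 10 were among the 8616 genes tested. RNA of cells sorted on CD45, CD11c and MHC-II from popliteal lymph nodes had been measured by bulk MARS-seq, a method that counts the 3′ ends of polyadenylated transcripts by unique molecular identifiers (UMIs). All mice were C57BL/6 chimeras of 16 weeks, 8 weeks after the procedure that the labels abbreviate as BMT. The 4 groups had 2 libraries each. Activated cells of ICAM-1/2 DKO/WT chimeras (DKO activated) and resting cells of the same kind of chimera (DKO resting) form the first pair. Activated cells of WT/WT chimeras (WT activated) and resting cells of WT/WT chimeras (WT resting) form the second. Activated mice had received 10 µg of a monoclonal antibody against CD40 into the footpad, and resting mice had received none. No source used here gives the time between injection and harvest, the share of host cells left in the chimeras, or whether the libraries of a group came from separate animals. The p-values thus reflect the spread between these libraries alone, which may be technical.

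Immediate early genes are transcribed within minutes of a signal without new protein synthesis, mainly through MAP kinases acting on serum response factor and on CREB. FOS and JUN proteins pair into AP-1, a transcription factor complex that in DCs acts downstream of pattern recognition receptors and of CD40. The same signals induce their own brakes. DUSP1 is a phosphatase that inactivates MAP kinases, and ZFP36 (tristetraprolin) binds AU-rich elements in 3′ untranslated regions (UTRs) and promotes decay of the transcript, its own included.

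The promoters of the members with the widest range over the libraries are shown, because the letters of the cyclic AMP response element, the site that CREB binds, recur in them. The sequences are from RefSeq, build GRCm38.p6 (mm10), and cover the 250 bases before the transcription start. Capitals mark TGACG, the core of that element, or CGTCA where it lies on the other strand; in Fos they also mark the TATA box letters TATAAA, and in Dusp1 TGACGTCA is 2 overlapping matches on opposite strands.
Fos promoter, chr12:85473640-85473889, plus strand: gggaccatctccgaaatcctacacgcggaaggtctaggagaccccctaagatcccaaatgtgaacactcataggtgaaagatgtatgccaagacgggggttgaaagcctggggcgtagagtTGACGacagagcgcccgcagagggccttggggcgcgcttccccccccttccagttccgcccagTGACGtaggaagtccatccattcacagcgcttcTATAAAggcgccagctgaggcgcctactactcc
Fosb promoter, chr7:19310046-19310295, minus strand: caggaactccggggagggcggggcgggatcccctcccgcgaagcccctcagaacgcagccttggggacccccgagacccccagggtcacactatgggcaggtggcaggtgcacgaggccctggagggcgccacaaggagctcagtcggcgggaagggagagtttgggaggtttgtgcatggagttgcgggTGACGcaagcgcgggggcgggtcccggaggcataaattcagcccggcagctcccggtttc
Dusp1 promoter, chr17:26508473-26508722, minus strand: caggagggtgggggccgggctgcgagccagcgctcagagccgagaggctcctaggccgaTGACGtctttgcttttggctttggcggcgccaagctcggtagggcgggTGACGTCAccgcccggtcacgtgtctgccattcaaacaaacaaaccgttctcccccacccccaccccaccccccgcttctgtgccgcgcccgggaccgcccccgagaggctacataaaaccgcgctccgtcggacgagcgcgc
Nr4a1 promoter, chr15:101266596-101266845, plus strand: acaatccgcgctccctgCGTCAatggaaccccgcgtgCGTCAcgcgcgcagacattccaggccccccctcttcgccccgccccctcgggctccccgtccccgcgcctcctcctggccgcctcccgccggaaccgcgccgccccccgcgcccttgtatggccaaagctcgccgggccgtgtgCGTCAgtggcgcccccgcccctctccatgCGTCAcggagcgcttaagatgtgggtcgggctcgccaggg
Of the 10 members, 8 had a promoter in the table. TGACG, searched on both strands, was found in 5 of these 8, against 17.8% of 32851 promoters of the same length. The 5 were Fos with 2 matches, Fosb with 1, Junb with 1, Dusp1 with 3 and Nr4a1 with 4. TATAAA, searched likewise, was found in 1 of the 8, Fos, against 12.4% of promoters. The AP-1 letters TGANTCA were found in 0 of the 8, against 6.75% of promoters, and the CArG box in 1, Zfp36, against 1.47%. These matches describe letters in this window and were not tested as sites.

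The AU-rich core TATTTAT in the annotated 3′ UTRs is shown for Zfp36, the member with the smallest adjusted p in both genotypes, and for Fos and Dusp1. Positions and transcripts are from GENCODE vM21 on GRCm38, and capitals mark the core.
Zfp36 3′ UTR, chr7:28376966-28376994, minus strand: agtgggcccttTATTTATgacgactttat
Zfp36 3′ UTR, chr7:28376951-28376979, minus strand: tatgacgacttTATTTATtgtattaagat
Zfp36 3′ UTR, chr7:28376926-28376954, minus strand: agattttatagTATTTATatatattgggt
Fos 3′ UTR, chr12:85477103-85477131, plus strand: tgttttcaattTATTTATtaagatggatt
Fos 3′ UTR, chr12:85477127-85477155, plus strand: ggattctcagaTATTTATatttttatttt
Dusp1 3′ UTR, chr17:26506159-26506187, minus strand: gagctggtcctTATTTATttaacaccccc
Dusp1 3′ UTR, chr17:26505870-26505898, minus strand: gtttttaccttTATTTATttttgtgtagg
Dusp1 3′ UTR, chr17:26505674-26505702, minus strand: gtatgtttgttTATTTATgatctgaagta
The core was found in 6 of the 10 members, against 26.1% of 20730 protein-coding genes and 27.1% of the 9157 genes with a 3′ UTR as long as the members' (485 to 2145 bases). Zfp36 and Dusp1 had 3 matches each, Fos had 2, and Fosb, Jun and Jund had 1 each. Junb, Egr1, Ier2 and Nr4a1 had none.

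Libraries held 401984 to 1294777 UMIs, and levels are given as CPM, the count relative to the TMM-scaled library total. The floor was set at 3 UMIs, or 2.11 to 7.16 CPM. Icam1, the gene named in the knockout, had 38.6 and 35.8 CPM in DKO activated cells against 407 and 432 CPM in WT activated cells. Among resting cells Icam1 had 9.49 and 13.6 CPM in DKO libraries against 168 and 123 CPM in WT libraries. Of the DC markers, H2-Ab1 (MHC class II) was abundant at 9066 to 12110 CPM. Itgax, which encodes CD11c, had 11 to 43 UMIs per library, and Zbtb46, a transcription factor of classical DCs, had 0 to 8 UMIs. Summed over 14 B-cell markers the level was 7586 to 11560 CPM in the 8 libraries, so transcripts of B cells were measured beside those of DCs. In such bulk samples fewer cells of a type and less RNA per cell cannot be told apart.

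WT resting replicate 1 stood apart for these genes. It was the highest of the 8 libraries for 9 of the 10 members, all but Jund, against 8.39% of all genes tested. Summed over the members it held 2494 CPM, against 1173 CPM in WT resting replicate 2. Of the 10 members, 5 were at least 2-fold higher in replicate 1 than in replicate 2 of this group, against 4.89% of all genes tested. The ratio was 13.0 for Fosb, 6.83 for Fos, 3.39 for Junb, 3.05 for Jun and 2.31 for Dusp1. It was 1.94 for Egr1, 1.63 for Jund, 1.5 for Nr4a1, 1.18 for Ier2 and 1.13 for Zfp36, so the group's libraries were close for the last pair. When the 5349 genes whose mean log2 CPM reached 5 were ranked by this ratio, Fos was at rank 1, Junb at rank 6 and Jun at rank 12. Only 1 of the 23 tested genes in a list of other immediate early genes was at least 2-fold higher there. Of 11 tested DC markers, 4 were at least 2-fold higher in replicate 1 and 0 in replicate 2. These were Flt3, a receptor of DC progenitors, at 30.9 against 4.01 CPM, Batf3, Itgam and Fscn1; Itgax had 30.2 and 28.1 CPM. Of 15 tested heat shock and chaperone genes, which are known to rise when tissue is dissociated, 2 were at least 2-fold higher in replicate 1 and 1 in replicate 2. The library is also the deepest, and what part its depth or its DC marker levels had in these values was not tested. Results that rest on it are given with and without it.

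**Figure D1:**
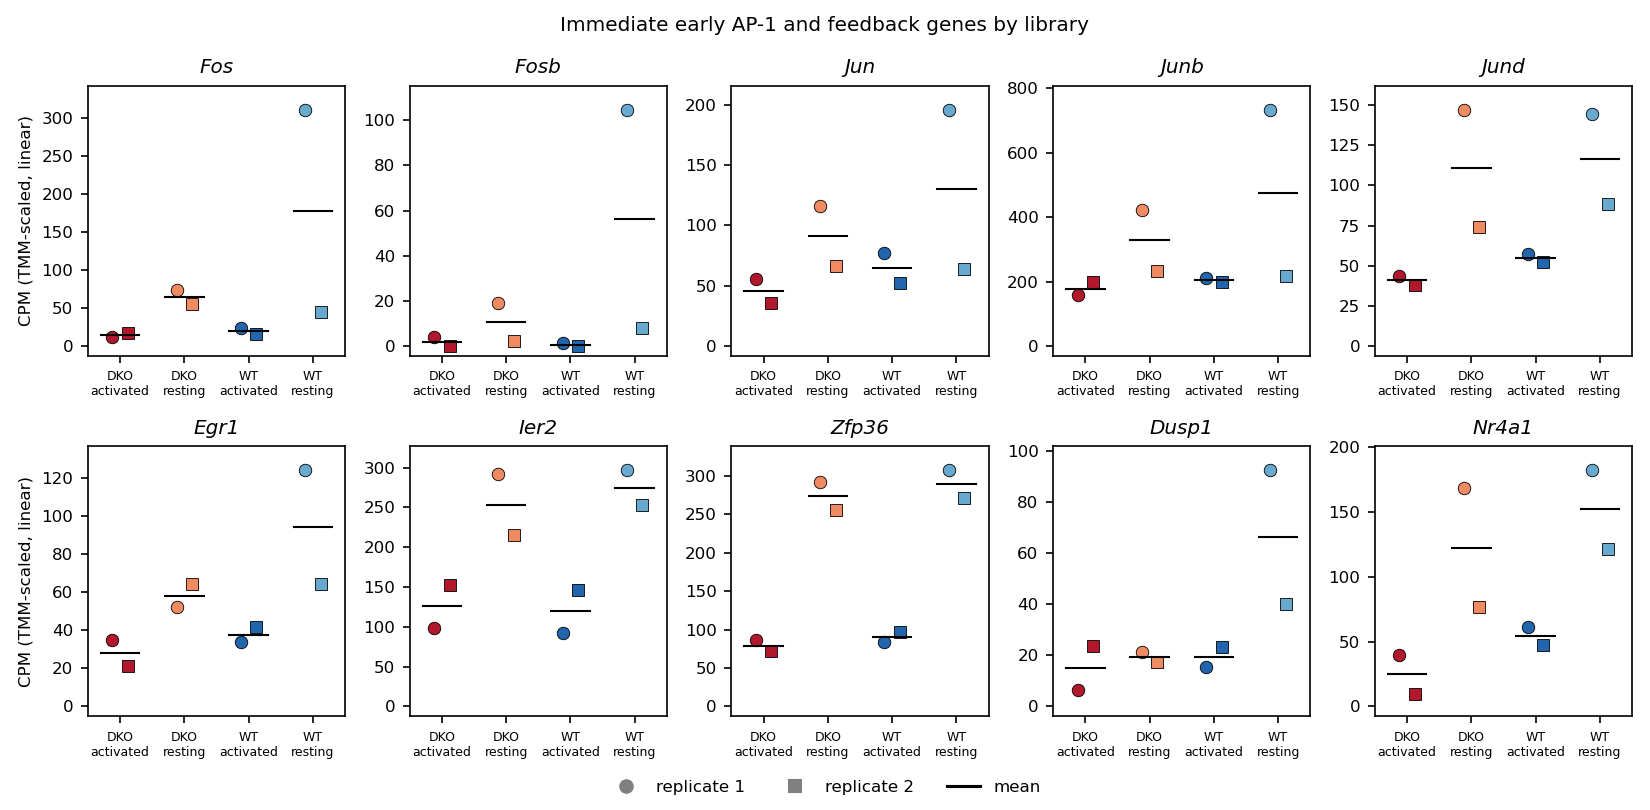
Level of each gene in each library, in TMM-scaled CPM on a linear axis, with circles for replicate 1, squares for replicate 2 and a line at the mean of the 2 libraries of each group (DKO activated, DKO resting, WT activated, WT resting). For 7 of the 10 genes every activated library lies below every resting library, and WT resting replicate 1 is the highest library for 9 of the 10.

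**Figure D2:**
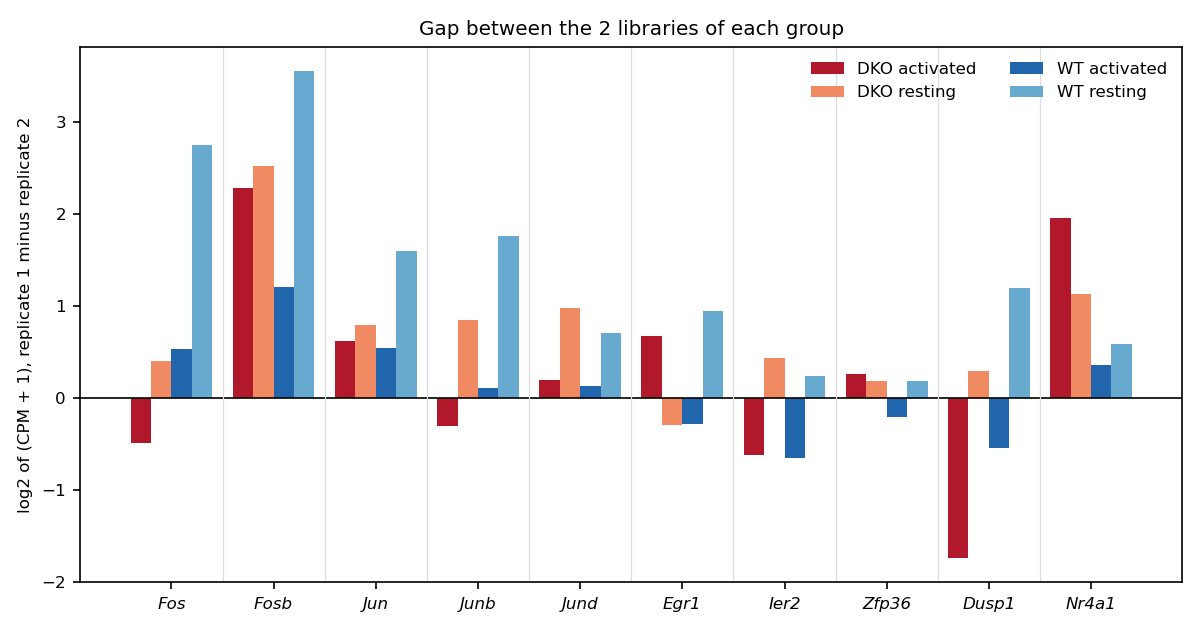
Difference between the 2 libraries of each group, replicate 1 minus replicate 2, in log2 of CPM plus 1. The widest gaps are those of Fosb and Fos in WT resting, while the Zfp36 bars are short in every group.

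The summed level of the AP-1 and feedback genes, relative to the library total, was lower in activated than in resting libraries. Summed over the 10 members, the level was 540 and 568 CPM in DKO activated libraries against 1603 and 1063 CPM in DKO resting libraries. It was 658 and 675 CPM in WT activated libraries against 2494 and 1173 CPM in WT resting libraries. All 4 activated libraries were thus below all 4 resting libraries. In DKO cells 5 of the 10 members fell with activation and none rose (edgeR quasi-likelihood test, adjusted p under 0.05), where 15.3% of all genes tested were called and 6.33% were called lower. In WT cells all 10 members fell, where 14.4% of all genes were called and 5.92% were called lower. Leaving out WT resting replicate 1, only Zfp36 and Ier2, 2 of the 10, were still called in WT cells, where 5.85% of all genes were called and 2.39% were called lower. DESeq2 called 6 members in WT cells, where it called 9.59% of all genes and 3.49% as lower; it gave Fosb no adjusted p. In DKO cells leaving out DKO resting replicate 1 gave 2 calls among the members (9.52% of all genes called), leaving out DKO activated replicate 1 gave 2 (12.9%) and leaving out DKO activated replicate 2 gave 3 (8.07%). In WT cells leaving out WT activated replicate 1 gave 4 calls (6.63% of all genes called), and leaving out WT activated replicate 2 gave 6 (6.14%). Zfp36 kept its call in both genotypes under all alternatives. Both DKO activated libraries were below both DKO resting libraries for 8 members, against 26.1% of all genes. Both WT activated libraries were below both WT resting libraries for 9 members, against 29.9% of all genes. The median log2 fold change of the members was -1.19 in DKO cells and -1.43 in WT cells, against 0.01 and -0.02 over all genes tested.

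Fos encodes the FOS subunit of AP-1, which must pair with a JUN protein. It had 11.6 and 16.7 CPM in DKO activated libraries, against 73.5 and 55.7 CPM in DKO resting libraries. WT activated libraries held 23.5 and 15.9 CPM, against 311 and 45.5 CPM in WT resting libraries. No activated library reached the lowest resting library, and WT resting replicate 1 was 4.22-fold above the next highest library. Fos fell by 2.21 ± 0.65 on the log2 scale (± SE) in DKO cells (edgeR, adjusted p = 0.0190) and fell by 3.23 ± 0.51 in WT cells (edgeR, adjusted p = 3.07e-05). Its WT log2 difference without WT resting replicate 1 was -1.22 ± 0.50, with an edgeR adjusted p of 0.162. In DKO cells the call rested on 9 and 7 UMIs in the activated libraries; the adjusted p was 0.0686 to 0.221 with any 1 DKO library left out, 0.156 in DESeq2 and 0.153 in limma-voom.

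Fosb encodes another FOS protein and was sparse outside WT resting replicate 1. It had 3 and 0 UMIs in DKO activated libraries, against 8 and 2 UMIs in DKO resting libraries. Its WT activated libraries had 1 and 0 UMIs, against 149 and 6 UMIs in WT resting libraries. Most of its UMIs came from WT resting replicate 1, and the DKO groups overlapped. The ratio of summed counts, scaled for depth, was 0.308 for activated over resting DKO cells (95% interval 0.0545 to 1.20, counting error only). In WT cells that ratio was 0.00884 (2.22e-04 to 0.04996). The WT difference was called (edgeR adjusted p = 1.69e-04), and without WT resting replicate 1 the adjusted p was 0.275; its fitted fold change depends on the prior count and is not given. The DKO difference was not called (edgeR adjusted p = 0.416).

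The 3 JUN family genes, whose products pair with FOS proteins or with each other, differed in how far the groups separated. Jun had 55.3 and 35.8 CPM in DKO activated libraries, against 116 and 66.8 CPM in DKO resting libraries. Activated WT libraries had 76.9 and 52.6 CPM, against 196 and 64.2 CPM in WT resting libraries. The WT groups of Jun overlapped, and its WT log2 difference of -1.06 ± 0.35 (edgeR adjusted p = 0.0388) came to -0.01 ± 0.41 without WT resting replicate 1. That WT call was also lost without any 1 of the 4 activated libraries (edgeR adjusted p = 0.0505 to 0.322) and in DESeq2 (adjusted p = 0.359). In DKO cells the Jun log2 difference was -0.89 ± 0.41, which was not called (edgeR adjusted p = 0.145).

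Junb, whose product is a weaker AP-1 activator than JUN in many settings, had 159 and 198 CPM in DKO activated libraries, against 422 and 234 CPM in DKO resting libraries. The WT activated libraries had 212 and 198 CPM, against 734 and 217 CPM in WT resting libraries. The other WT libraries lay between 198 and 217 CPM, and WT resting replicate 1 stood 3.39-fold above its own replicate. The WT log2 difference of -1.24 ± 0.32 (edgeR adjusted p = 0.00696) came to -0.09 ± 0.30 without that library. Leaving out WT activated replicate 1 or 2 gave edgeR adjusted p of 0.0600 or 0.0887, and DESeq2 gave 0.239. In DKO cells the Junb log2 difference was -0.86 ± 0.34, with an edgeR adjusted p of 0.0845, and it was called (adjusted p = 0.0140 to 0.0448) without either WT resting library, without DKO resting replicate 2 or in the fit on only the 4 DKO libraries. Junb shares its locus with Prdx2 on the opposite strand, and no source used here gives the strand setting of the counting. Jun, Jund and Zfp36 likewise overlap annotated antisense genes, and Dusp1 overlaps the protein-coding gene Ergic1 on the opposite strand.

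Jund, the family member that resting cells usually keep on, had 43.7 and 38.2 CPM in DKO activated libraries, against 147 and 74.3 CPM in DKO resting libraries. In WT activated libraries it had 57.4 and 52.6 CPM, against 144 and 88.3 CPM in WT resting libraries. Every activated library was below every resting one, and its highest library was DKO resting replicate 1. Jund fell by 1.35 ± 0.35 on the log2 scale in DKO cells (edgeR adjusted p = 0.00777) and fell by 1.11 ± 0.31 in WT cells (edgeR adjusted p = 0.0127). Without WT resting replicate 1 the WT log2 difference was -0.70 ± 0.39, with an edgeR adjusted p of 0.341. Jund also lost its WT call without either WT activated library (edgeR adjusted p = 0.0818 and 0.130). Its DKO call was lost without DKO resting replicate 1, DKO activated replicate 1 or DKO activated replicate 2 (edgeR adjusted p = 0.151, 0.0545 and 0.0700).

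Egr1 encodes a zinc finger transcription factor induced by ERK signalling. It had 34.7 and 21.5 CPM in DKO activated libraries, against 52.2 and 64.4 CPM in DKO resting libraries. WT activated libraries held 33.9 and 41.6 CPM, against 124 and 64.2 CPM in WT resting libraries. The activated libraries were all below the resting ones, and 3 of the 4 resting libraries lay between 52.2 and 64.4 CPM. Egr1 fell by 1.35 ± 0.33 on the log2 scale in WT cells (edgeR adjusted p = 0.00495), and its WT difference without WT resting replicate 1 was -0.78 ± 0.43 (edgeR adjusted p = 0.327). Without WT activated replicate 1 the edgeR adjusted p was 0.0900. In DKO cells its log2 difference was -1.01 ± 0.39, with an edgeR adjusted p of 0.0814.

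Ier2 encodes a small nuclear protein of the immediate early class. It had 98.9 and 153 CPM in DKO activated libraries, against 292 and 215 CPM in DKO resting libraries. Its WT activated libraries had 92.5 and 147 CPM, against 297 and 253 CPM in WT resting libraries. The groups did not overlap, and the resting libraries of both genotypes overlapped. Ier2 fell by 1.03 ± 0.26 on the log2 scale in DKO cells (edgeR adjusted p = 0.00615) and fell by 1.20 ± 0.24 in WT cells (edgeR adjusted p = 8.07e-04). With WT resting replicate 1 left out it still fell by 1.09 ± 0.30 (edgeR adjusted p = 0.0250). The WT call was lost without WT activated replicate 1 (edgeR adjusted p = 0.0674), and the DKO call without DKO resting replicate 1 or DKO activated replicate 1 (edgeR adjusted p = 0.0650 and 0.141).

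Nr4a1 encodes NUR77, an orphan nuclear receptor that antigen receptor and inflammatory signals induce. It had 39.8 and 9.54 CPM in DKO activated libraries, against 168 and 76.7 CPM in DKO resting libraries. Activated WT libraries had 61.3 and 47.7 CPM, against 183 and 122 CPM in WT resting libraries. No activated library reached a resting one, although DKO activated replicate 1 was 4.17-fold above replicate 2. These 2 libraries held 31 and 4 UMIs, the latter close to the floor of 3 UMIs. Nr4a1 fell by 2.06 ± 0.41 on the log2 scale in DKO cells (edgeR adjusted p = 6.63e-04) and fell by 1.5 ± 0.34 in WT cells (edgeR adjusted p = 0.00237). Without WT resting replicate 1 the WT log2 difference was -1.17 ± 0.43, with an edgeR adjusted p of 0.103; the WT call was also lost without WT activated replicate 2 (edgeR adjusted p = 0.0690) and in DESeq2 (adjusted p = 0.155).

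Zfp36, which encodes tristetraprolin and whose UTR sites are printed above, gave the tightest pattern. It averaged 78.8 ± 10.3 CPM in DKO activated libraries and 274 ± 25.1 CPM in DKO resting libraries (SD, n = 2 each). It averaged 90.0 ± 9.31 CPM in WT activated libraries and 290 ± 25.6 CPM in WT resting libraries (SD, n = 2 each). Single activated libraries ran from 71.6 to 96.6 CPM, and single resting libraries from 256 to 308 CPM, so the gap between states was wider than the range within either. Zfp36 fell by 1.77 ± 0.24 on the log2 scale in DKO cells (edgeR adjusted p = 3.44e-06) and fell by 1.69 ± 0.22 in WT cells (edgeR adjusted p = 2.53e-06). With WT resting replicate 1 left out its WT level still fell by 1.60 ± 0.28 (edgeR adjusted p = 2.64e-04).

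Dusp1, the MAP kinase phosphatase of the group, was low in 3 of the 4 groups. It had 6.42 and 23.9 CPM in DKO activated libraries, against 21.3 and 17.3 CPM in DKO resting libraries. The WT activated libraries had 15.6 and 23.2 CPM, against 92.7 and 40.1 CPM in WT resting libraries. The DKO groups overlapped, with 5 to 14 UMIs per library, and the DKO difference was not called (log2 difference -0.52 ± 0.62, edgeR adjusted p = 0.634). Dusp1 fell by 1.81 ± 0.44 on the log2 scale in WT cells (edgeR adjusted p = 0.00470), and without WT resting replicate 1 the WT difference was -1.05 ± 0.61 (edgeR adjusted p = 0.360). Without WT activated replicate 1 the edgeR adjusted p was 0.0932.

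**Figure D3:**
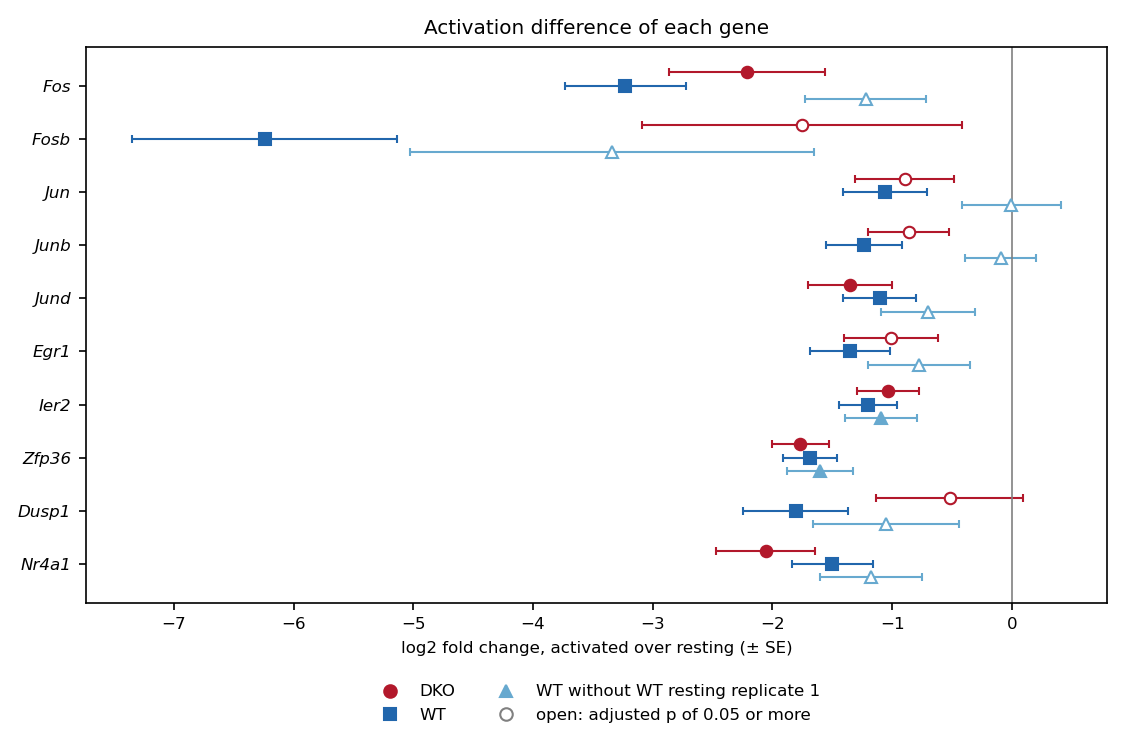
Log2 fold change of each gene, activated over resting, with its standard error, in DKO cells (circles), in WT cells (squares) and in WT cells without WT resting replicate 1 (triangles); open symbols have an adjusted p of 0.05 or more. Every estimate for DKO and WT cells is below 0, and the triangles of Jun and Junb lie at -0.01 and -0.09; the fitted values of Fosb, which had 1 UMI in the WT activated libraries, depend on the prior count.

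Across both genotypes the direction was shared. As the mean of the DKO and WT differences, all 10 members fell, where 29.7% of all genes tested were called and 13.4% were called lower. Fosb aside, the changes ran from -0.98 for Jun to -2.72 for Fos on the log2 scale, and the median was -1.20, against -0.01 over all genes. Without WT resting replicate 1, 6 members were still called, namely Fos, Jund, Egr1, Ier2, Zfp36 and Nr4a1, where 21.6% of all genes were called and 9.49% were called lower. Dusp1, Fosb and Jun also lost this call when some other single library was left out, as did Dusp1, Jun and Junb in DESeq2. With WT resting replicate 1 left out Zfp36 fell by 1.70 ± 0.19, Fos fell by 1.73 ± 0.35 and Nr4a1 fell by 1.63 ± 0.30 on the log2 scale. Every activated library was below every resting library for 7 members (Fos, Junb, Jund, Egr1, Ier2, Zfp36 and Nr4a1), against 13% of all genes tested. The same 7 members separated the states with WT resting replicate 1 set aside, against 14.9% of all genes. Fosb, Jun and Dusp1 overlapped between states.

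Genotype differences were looked for at rest and after activation, DKO over WT. At rest 0 of the 10 members were called (edgeR, 0.162% of all genes called), and DESeq2 also called 0. At an unadjusted p under 0.05, 4 members passed at rest, namely Fos, Fosb, Egr1 and Dusp1, against 5.2% of all genes. Fos had 73.5 and 55.7 CPM in DKO resting libraries, which lay between the 311 and 45.5 CPM of the WT resting libraries. Its log2 difference was -1.55 ± 0.45 (edgeR adjusted p = 0.411), and without WT resting replicate 1 it was 0.49 ± 0.48. When WT resting replicate 2 was left out, so that the high library alone stood for WT, Fos and Fosb were called (0.151% of all genes called), with a Fos log2 difference of -2.28 ± 0.32 (edgeR adjusted p = 1.08e-04). Dusp1 had 21.3 and 17.3 CPM (9 and 14 UMIs) in DKO resting libraries against 92.7 and 40.1 CPM in WT resting libraries. Its log2 difference of -1.85 ± 0.47 missed the threshold (edgeR adjusted p = 0.175), and without WT resting replicate 1 it was -1.07 ± 0.63.

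For the tight members the genotypes lay close together. Zfp36 differed by -0.09 ± 0.21 on the log2 scale between DKO and WT cells at rest and by -0.17 ± 0.26 after activation. Ier2 differed by -0.14 ± 0.24 at rest and by 0.03 ± 0.27 after activation. These errors leave room for small differences in either direction. After activation 0 members were called by edgeR (0.174% of all genes called) and 0 by DESeq2. Nr4a1 alone passed an unadjusted p under 0.05, which 4.92% of all genes did (log2 difference -0.95 ± 0.43, edgeR adjusted p = 0.958). It had 39.8 and 9.54 CPM (31 and 4 UMIs) in DKO activated libraries against 61.3 and 47.7 CPM in WT activated libraries. As the mean of both states 0 members were called by either tool (0.209% of all genes called in edgeR), and 4 passed an unadjusted p under 0.05, namely Fos, Egr1, Dusp1 and Nr4a1, against 5.65% of all genes. Fos alone was called for this mean when WT resting replicate 2 was left out (0.151% of all genes called).

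Whether activation moved the members by different amounts in DKO and WT cells was tested as an interaction. It called 0 members (0% of all genes called), DESeq2 called 0, and 0 passed an unadjusted p under 0.05. For Fos the interaction was 1.02 ± 0.90 on the log2 scale, for Dusp1 1.29 ± 0.77, for Nr4a1 -0.56 ± 0.54 and for Zfp36 -0.08 ± 0.33 (edgeR, each adjusted p = 0.997). The 5 calls in DKO cells and the 10 in WT cells are therefore not shown to differ.

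Genes that work beside these members are given by list. The lists were drawn from knowledge of the pathway, but with earlier results of these data known. The calls are those of the mean activation difference, for which 29.7% of all genes were called and 13.4% were called lower. These shares apply to each list count here and to the marker counts, and no list was tested against other genes. Of 23 tested other immediate early genes, 8 fell and 1 rose, with a median log2 fold change of -0.63. Klf2, a transcription factor of lymphocyte and myeloid quiescence, fell by 2.60 ± 0.18 on the log2 scale (edgeR adjusted p = 2.36e-12). Btg1, an antiproliferative gene, fell by 1.22 ± 0.17 (edgeR adjusted p = 1.31e-06). Nfkbia, the NF-κB inhibitor that NF-κB itself induces, was the 1 that rose, to 515 and 611 CPM in DKO activated libraries against 285 and 381 CPM in DKO resting libraries, and likewise to 701 and 671 CPM in WT activated libraries against 337 and 353 CPM in WT resting libraries.

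Of 15 tested other AP-1 and bZIP factors, 2 rose and 1 fell, with a median log2 fold change of -0.27 against -0.01 over all genes. Atf4, the factor of the integrated stress response, fell by 0.42 ± 0.13 on the log2 scale, and Atf5 rose by 0.95 ± 0.31 (edgeR adjusted p = 0.0144 and 0.0193). Other feedback inhibitors had 5 rises and 4 falls among 21 tested and a median of -0.09. Dusp2, a nuclear MAP kinase phosphatase, fell by 0.88 ± 0.13 on the log2 scale (edgeR adjusted p = 4.93e-06). The NF-κB inhibitors Nfkbie and Tnfaip3 rose by 1.23 ± 0.15 and 1.11 ± 0.23 (edgeR adjusted p = 2.48e-07 and 3.74e-04).

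Upstream of the members, 7 of 31 tested genes of the MAP kinase pathway and of SRF or CREB activation fell and 1 rose, with a median of -0.34. Mapk11, a p38 kinase, fell by 1.38 ± 0.20, Map2k7, a JNK kinase, fell by 0.97 ± 0.22, and Ep300, a coactivator of CREB, fell by 0.97 ± 0.25 on the log2 scale (edgeR adjusted p = 3.66e-06, 0.00131 and 0.00360). Downstream of ZFP36, only 5 transcripts of a list with known AU-rich elements could be tested, of which 2 rose and 0 fell in the mean of both genotypes. In DKO cells alone 1 rose and 0 fell, and in WT cells alone 2 rose and 2 fell. Those that fell in WT were the chemokines Ccl3, with 7 and 4 UMIs in WT activated against 48 and 26 UMIs in WT resting libraries, and Ccl4, with 9 and 6 against 104 and 39 UMIs (edgeR adjusted p = 0.00995 and 4.44e-04). Tnf, which encodes a cytokine whose transcript tristetraprolin destabilises, rose by 0.81 ± 0.20 (edgeR adjusted p = 0.00218). Ccl2, which encodes a monocyte chemoattractant, had 9 and 7 UMIs in DKO activated libraries against 0 and 0 in DKO resting libraries, and 5 and 24 UMIs in WT activated libraries against 1 and 0 in WT resting libraries (edgeR adjusted p = 1.04e-04). Of the genes in these lists, 3 of this last one were called between genotypes. Ccl3 and Ccl4, chemokines of activated myeloid and lymphoid cells, were lower at rest. Ccl3 had 0 and 1 UMIs in DKO resting libraries against 48 and 26 in WT resting libraries (edgeR adjusted p = 0.00856). Ccl4 had 3 and 1 UMIs in DKO resting libraries against 104 and 39 in WT resting libraries (edgeR adjusted p = 0.00155). Ifng, a T-cell and NK-cell cytokine, was lower after activation, with 6 and 6 UMIs in DKO activated libraries against 32 and 69 in WT activated libraries (edgeR adjusted p = 0.0174). Ifng was also called lower in the mean of both states (edgeR adjusted p = 7.32e-04). At rest it had 7 and 3 UMIs in DKO libraries against 70 and 22 in WT libraries, and was not called there.

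**Figure D4:**
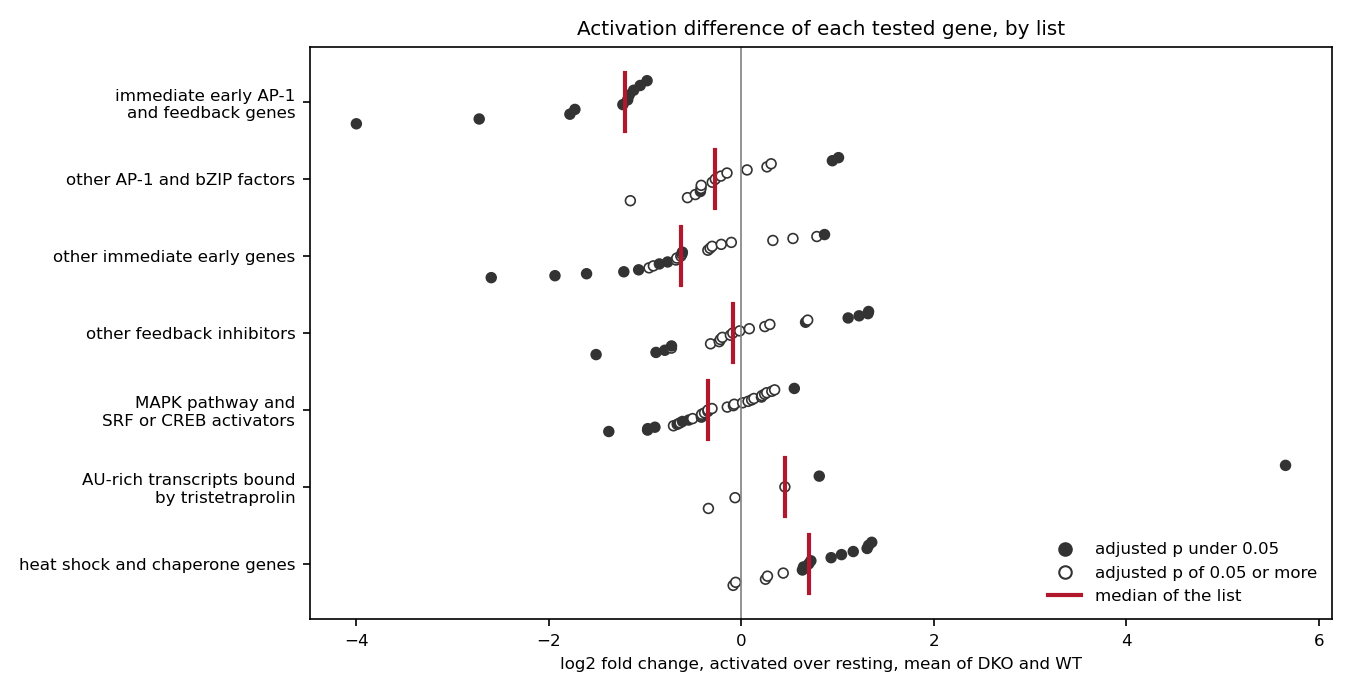
Log2 fold change, activated over resting, as the mean of DKO and WT cells, for each tested gene of 7 lists; filled points have an adjusted p under 0.05 and the bar is the median of the list. The 10 immediate early AP-1 and feedback genes all lie below 0 with a median of -1.20, while the heat shock and chaperone genes have a median of 0.70.

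Heat shock and chaperone genes are given because dissociation of tissue is known to raise them together with FOS and JUN genes. Of 15 tested, 10 rose and 0 fell with activation, with a median log2 fold change of 0.70. Their summed level was 4510 and 5581 CPM in DKO activated libraries against 2995 and 2998 CPM in DKO resting libraries. It was 4868 and 5036 CPM in WT activated libraries against 2748 and 3326 CPM in WT resting libraries. Hsp90ab1, Hspe1 and Hspa5 rose by 1.16 ± 0.13, 1.31 ± 0.17 and 1.04 ± 0.16 on the log2 scale (edgeR adjusted p = 4.08e-08, 3.70e-07 and 8.09e-06). Dnajb1 had 144 and 160 CPM in DKO activated libraries against 152 and 147 CPM in DKO resting libraries. It had 156 and 171 CPM in WT activated libraries against 133.5 and 246 CPM in WT resting libraries. Hspa1b had only 2 to 16 UMIs per library. What part dissociation had in these values was not tested.

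Markers of other cell types also moved with activation and, in fewer cases, with genotype. Of 12 tested monocyte and macrophage markers, 11 rose and 1 fell, and their summed level was 11920 to 15700 CPM in DKO activated libraries against 3126 to 3132 CPM in DKO resting libraries. It was 5279 to 6068 CPM in WT activated libraries against 2393 to 2742 CPM in WT resting libraries. Most of this sum came from Lyz2 and Apoe in every library, and Adgre1 was at 0 in 3 libraries. Of 13 tested B-cell markers 8 fell and 3 rose, with 7586 to 8974 CPM in DKO activated libraries against 10660 to 11560 CPM in DKO resting libraries. The B-cell sum was 8976 to 9296 CPM in WT activated libraries against 9765 to 9967 CPM in WT resting libraries; Pax5 was at 0 in 2 libraries. Of 11 tested T-cell markers 6 fell and 1 rose, with 1169 to 1360 CPM in DKO activated libraries against 1253 to 1698 CPM in DKO resting libraries, and 963 to 1621 CPM in WT activated libraries against 1933 to 2413 CPM in WT resting libraries. No T-cell marker in the table was at 0 in any library. Of 9 tested NK and ILC markers 4 rose, and of 6 plasmacytoid DC markers 4 rose, with none falling in either list. In the plasmacytoid DC list Siglech had 0 to 30 UMIs per library and Ccr9 had 0 to 34 UMIs, while Ly6d had 632 to 1823 UMIs. The DC list, with 3 rises and 2 falls among 11 tested, summed to 24820 to 25460 CPM in activated libraries against 24190 to 28880 CPM in resting libraries. Of the DC sum, 92.8% to 94.5% per library came from H2-Ab1 and Cd74, which B cells also express. The other 11 DC markers summed to 1494 to 1651 CPM in activated libraries against 1475 to 1739 CPM in resting libraries. A large part of that sum was Ptprc (CD45), which is not particular to DCs. Ptprc had 393.7 to 642.5 CPM in activated libraries against 647.4 to 925.2 CPM in resting libraries. The similar sums therefore do not show that the share of DCs was steady. Between genotypes, 2 monocyte and macrophage markers were called higher in DKO cells after activation. Lyz2 had 6477 and 7855 CPM in DKO activated libraries against 2748 and 2050 CPM in WT activated libraries, and Apoe had 3419 and 4369 CPM in DKO against 1584 and 1531 CPM in WT (edgeR adjusted p = 1.41e-06 and 2.69e-05). Both were also called in the mean of both states. At rest the T-cell marker Cd8a was lower, at 71.1 and 45.8 CPM in DKO against 185.5 and 152.5 CPM in WT (edgeR adjusted p = 0.0182). The NK and ILC marker Xcl1 was lower at rest too, at 40.3 and 7.43 CPM in DKO against 71.7 and 182 CPM in WT (edgeR adjusted p = 0.00948), and was called in the mean of both states. The part of these shifts in the levels and the fall of the AP-1 and feedback genes was not tested.

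The 5 genes outside the group whose profiles over the 8 libraries were nearest to the members' mean profile were Lax1, Adcy7, Tle3, Stat5b and Mllt6. Likeness was the root-mean-square difference of centred log2 CPM, which was 0.387 for Lax1 and 0.434 for Mllt6, against a median of 0.956 over 5341 genes compared. Lax1, a membrane adaptor of lymphocytes, had 123 and 100 CPM in DKO activated libraries against 332 and 265 CPM in DKO resting libraries. In WT activated libraries it had 150 and 139 CPM, against 337 and 282 CPM in WT resting libraries. All 5 fell with activation, by 1.24 to 1.61 on the log2 scale. They were chosen for likeness to a profile that was lower in activated libraries, so this fall follows from the choice. Within the group Jund was nearest to the mean profile, at 0.317, and Fosb farthest from it, at 1.32. Only Jund, Egr1 (0.371) and Jun (0.380) were nearer to it than Lax1, and the other members were farther from it than Lax1.

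The authors' deposited table gives its own values for the same comparisons. In the authors' deposited table, activation in DKO cells had an adjusted p under 0.05 for 4 members, namely Jund, Ier2, Zfp36 and Nr4a1, against 10.6% of the 8393 genes with an adjusted p. For WT cells the authors' deposited table has 5 such members, namely Fos, Egr1, Ier2, Zfp36 and Dusp1, against 11% of 7384 genes. Its log2 fold changes for Zfp36 were -1.65 in DKO cells and -1.56 in WT cells in the authors' deposited table, with adjusted p of 1.77e-08 and 1.25e-08. For Fosb in WT cells the authors' deposited table has -1.02 with an adjusted p of 0.0627. No member was under 0.05 between genotypes in the authors' deposited table.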

How the data were processed

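UMI counts per gene of 8 bulk MARS-seq libraries were used. Per the submitters' processing notes, the build was mm10 and the tools were DESeq2, HTSeq, TopHat2, cutadapt 1.8.3 and bcl2fastq 2.17.1.14; no source used here gives the annotation, strand setting or UMI collapsing. The authors deposited these raw counts per gene, per the file headers, with log2 fold changes and adjusted p-values of their own comparisons, which are quoted only as the authors' values. In the 2 comparisons of genotype the authors' sign is WT over DKO, as Icam1 shows. A further 16 per-sample columns were not used. Every gene in the table had 6 or more UMIs in some library.

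Counts were filtered with filterByExpr, TMM-scaled and modelled with edgeR 4.0.16 under R 4.3.3, using 1 coefficient per group over all 8 libraries (4 residual degrees of freedom). Each contrast had a quasi-likelihood F test with Benjamini-Hochberg adjustment over 8616 genes; 1796 genes were untested. "Called" means an adjusted p under 0.05, and the standard error is the log2 fold change over the square root of F. The fit was tested on simulated data. Intervals and floors cover counting error only, with exact 95% intervals for ratios of counts.

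Alternatives were a fit without each library, a fit on only the 4 libraries compared, limma-voom (limma 3.58.1) with quality weights, DESeq2 1.42.0, edgeR with size factors from DESeq2, and filters of 10 CPM in 2 libraries or of a summed count of 1. The 10 members and all lists were chosen with earlier results of these data known. Beside the members, the rule for named genes took up to 3 called genes of each list by p in the mean activation contrast, every list gene called between genotypes, the 5 nearest profiles whose mean log2 CPM reached 5, and Icam1; 1 gene that the rule takes is not reported here. The labels name no batch.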

Additional observations from a re-analysis of the deposited data

How the results depend on the processing

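Over the alternatives, 949 results for single genes were recomputed. Of these, 895 kept their side of the threshold, 47 lost a call, 7 gained one and 0 that were called changed direction. The 895 include results that were not called and changed sign. For Fos at rest, the DKO over WT log2 difference was -1.55 in the main fit and 0.49 without WT resting replicate 1. Scaling by DESeq2 size factors, either filter, limma-voom with quality weights and a fit on only the 4 libraries compared left every count of members called within 1.5 times its value. DESeq2 called 6 members for activation in WT cells in place of 10; the cause was not tested. Leaving out each library in turn gave 2 to 6 members for activation in DKO cells, 2 to 10 in WT cells and 6 to 10 for the mean of both. Between genotypes it gave 0 to 2 members at rest, 0 after activation and 0 to 1 for the mean of both states, and it gave 0 for the interaction. For DKO cells, leaving out DKO resting replicate 1 gave 2 members, leaving out DKO activated replicate 1 gave 2 and leaving out DKO activated replicate 2 gave 3. In WT cells 2 were called without WT resting replicate 1, 4 without WT activated replicate 1 and 6 without WT activated replicate 2. For the mean of both, 6 were called without WT resting replicate 1. Without WT resting replicate 2, the members called were Fos and Fosb at rest and Fos for the mean of both states. A group with a library left out keeps 1 library, which is then assumed to vary like the other groups. No paired analysis was possible because replicate numbers were given in accession order and pair no libraries. Counts were lowest for Fosb and Dusp1, with under 15 UMIs in each DKO library.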
